A study of Mus musculus with 8 samples.

Results

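The genes described here are those of the mitochondrial ribosomal proteins, taken as every row of the deposited table whose symbol begins with Mrpl or Mrps followed by a digit. The rule found 74 genes among the 10412 in the table, 47 with an Mrpl symbol for the large subunit and 27 with an Mrps symbol for the small subunit. It used names alone and no measured value. Mrpl23, Mrps18b and Mrps36 were not analysed here, and Mrpl58 was found only under its older symbol Ict1, which the rule does not take.

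The mitochondrial ribosome translates the few messenger RNAs of mitochondrial DNA, all of which code for subunits of the respiratory chain and the ATP synthase. Its ribosomal RNAs are made in the organelle, but every one of its proteins is encoded in the nucleus, made in the cytosol and imported. The small subunit reads the messenger RNA and the large subunit forms the peptide bond, and many of the proteins have a bacterial counterpart while others occur only in mitochondria.

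The cells were dendritic cells (DCs), antigen-presenting cells of the immune system, sorted from popliteal lymph nodes of C57BL/6 mice on CD45, CD11c and MHC-II and labelled as classical DCs. All mice were 16 weeks old and were chimeras 8 weeks after bone marrow transplantation, abbreviated BMT in the labels. The chimeras were WT/WT, with wild-type cells, or ICAM-1/2 DKO/WT, a double knockout of ICAM-1 and ICAM-2, adhesion ligands of the integrin LFA-1 (called WT and DKO below). The labels do not spell out which name is that of the donor. Resting mice received nothing, and activated mice received 10 µg of a monoclonal antibody against CD40, an activating receptor of DCs, in the footpad. Each of the 4 groups had 2 libraries of bulk MARS-seq, a method that counts captured messenger RNAs from their 3′ ends by unique molecular identifiers (UMIs). No label states that a group's libraries came from different mice, and so the p-values measure the spread among these samples alone, which could be technical. The comparisons ask what activation does to these transcripts, and whether the loss of ICAM-1 and ICAM-2 alters their level or their response.

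The libraries held 401984 to 1294777 UMIs and 9801 to 10369 detected genes each. Icam1 was lower in DKO by the genotype mean, with a log2 difference of −3.53 ± 0.21 (SE; edgeR adjusted p 3.00e-13), in the direction of the labels. Of 13 listed DC markers 12 were analysed, without Clec9a. They summed to 23810 to 28416 CPM (UMI counts scaled to a common library size with TMM) over the 8 libraries. Their median level was only 7.07 on the log2 CPM scale over those tested. A few genes therefore made up most of the sum, which alone does not show DC identity. Zbtb46 and Xcr1, which define classical DCs and one of their subsets, had only 0 to 8 UMIs each per library and were at 0 in 1 library each. B cell markers were also present, with summed levels of 7938 to 7981 CPM in WT resting, 6286 to 6449 in WT activated, 8812 to 9390 in DKO resting and 5476 to 6525 in DKO activated libraries.

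All 74 genes were detected in each of the 8 libraries. They took 0.674% and 0.702% of the UMIs of the WT resting libraries and 0.913% and 0.87% of those of the WT activated libraries. In DKO they took 0.669% and 0.659% at rest and 0.852% and 0.954% after activation. Every activated library therefore gave mitochondrial ribosomal proteins a larger share of its UMIs than any resting library. The median gene stood at 98 CPM, and 73 of the 74 had enough counts to be tested. The exception was Mrps33, a small subunit protein, with 4 and 2 UMIs in WT resting, 7 and 3 in WT activated, 2 and 2 in DKO resting and 1 and 3 in DKO activated libraries. Over these genes the 2 libraries of each group differed by more than counting noise, with a chi-square of 1.56 to 2.31 per degree of freedom.

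The members lie on 17 chromosomes of the mouse genome. Because many of them rose together with activation, as given below, the 250 bases before the transcription start of 6 genes are shown, from RefSeq (GRCm38.p6, the mm10 build), 5′ to 3′ on the strand of the gene. The first 4 belong to genes with the largest rises, and the last 2 to abundant genes that did not pass the test. Capitals mark the NRF1 sequence GCGCANGCG or the ETS core CCGGAAG, found on either strand. Both are motifs of factors known to act on promoters of nuclear genes for mitochondrial proteins.
Mrpl14, chr17:45686099-45686348, + strand: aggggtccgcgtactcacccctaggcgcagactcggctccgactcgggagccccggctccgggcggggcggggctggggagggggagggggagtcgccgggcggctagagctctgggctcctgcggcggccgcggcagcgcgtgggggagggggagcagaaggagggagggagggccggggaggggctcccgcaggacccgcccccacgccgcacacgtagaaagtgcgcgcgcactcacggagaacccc
Mrpl52, chr14:54426659-54426908, + strand: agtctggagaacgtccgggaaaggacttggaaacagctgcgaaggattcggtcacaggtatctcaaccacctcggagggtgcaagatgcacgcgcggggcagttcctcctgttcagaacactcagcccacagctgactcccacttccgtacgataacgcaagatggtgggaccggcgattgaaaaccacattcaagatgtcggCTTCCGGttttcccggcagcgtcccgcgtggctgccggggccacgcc
Mrps6, chr16:92058086-92058335, + strand: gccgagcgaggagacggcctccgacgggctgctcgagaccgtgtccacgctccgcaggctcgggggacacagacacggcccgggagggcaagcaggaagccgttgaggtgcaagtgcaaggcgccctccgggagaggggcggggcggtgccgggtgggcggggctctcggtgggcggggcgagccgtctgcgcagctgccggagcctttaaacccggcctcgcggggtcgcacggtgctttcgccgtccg
Mrpl17, chr7:105811088-105811337, − strand: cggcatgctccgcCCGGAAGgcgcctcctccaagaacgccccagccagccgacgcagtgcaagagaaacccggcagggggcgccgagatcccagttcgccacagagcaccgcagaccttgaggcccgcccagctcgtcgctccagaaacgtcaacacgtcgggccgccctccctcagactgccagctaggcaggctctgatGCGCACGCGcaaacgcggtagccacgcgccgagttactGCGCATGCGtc
Mrpl43, chr19:45006443-45006692, − strand: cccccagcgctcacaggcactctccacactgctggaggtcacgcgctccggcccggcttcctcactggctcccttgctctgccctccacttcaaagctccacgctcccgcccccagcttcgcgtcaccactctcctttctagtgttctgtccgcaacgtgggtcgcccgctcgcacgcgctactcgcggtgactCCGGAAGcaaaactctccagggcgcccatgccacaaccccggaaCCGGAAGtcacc
Mrpl24, chr3:87919294-87919543, + strand: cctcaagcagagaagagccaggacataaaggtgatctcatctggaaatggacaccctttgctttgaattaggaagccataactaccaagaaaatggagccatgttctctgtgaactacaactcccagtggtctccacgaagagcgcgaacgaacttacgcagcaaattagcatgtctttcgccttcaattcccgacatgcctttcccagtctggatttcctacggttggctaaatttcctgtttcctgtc

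Mrpl14, Mrps6 and Mrpl24 held neither motif in this window. Mrpl52 held 1 ETS core, Mrpl17 held 2 NRF1 sequences and 1 ETS core, and Mrpl43 held 2 ETS cores. Of the tested genes, 64 members and 6696 genes in all had a RefSeq promoter. No limit was set on the distance from the RefSeq start to the GENCODE start. It reached 17016 bases for Mrpl33, 7979 for Mrps24, 3185 for Mrpl35 and 2496 for Mrpl36. The NRF1 sequence was found before the start of 12 of the 64 members (18.8%) and of 13% of all genes. The ETS core was found in 15 members (23.4%) and in 16.7% of all genes. A further pair of motifs was searched on both strands, the YY1 sequence AAGATGGCG, present in 3.12% of members and 1.51% of all, and the E-box CACGTG, present in 7.81% and 8.84%. With the 50 bases after the start included, the NRF1 sequence was in 23.4% of members against 15.8% of all, the ETS core in 32.8% against 22.1%, and the YY1 sequence in 12.5% against 4.14%. These are counts of letters, not of bound sites, and none of the motifs contains another.

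Transcripts of mitochondrial ribosomal proteins stood higher in activated than in resting libraries of both genotypes. Summed over the 74 genes, the level was 6132 and 6681 CPM in WT resting libraries and 9785 and 9729 CPM in WT activated libraries. It was 6377 and 6196 CPM in DKO resting libraries and 8789 and 10723 CPM in DKO activated libraries. The resting and activated libraries did not overlap in either genotype. Group means were 6406 ± 388 and 9757 ± 39.6 CPM in WT, and 6286 ± 128 and 9756 ± 1370 CPM in DKO, at rest and after activation (SD, n = 2 each).

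**Figure D1:**
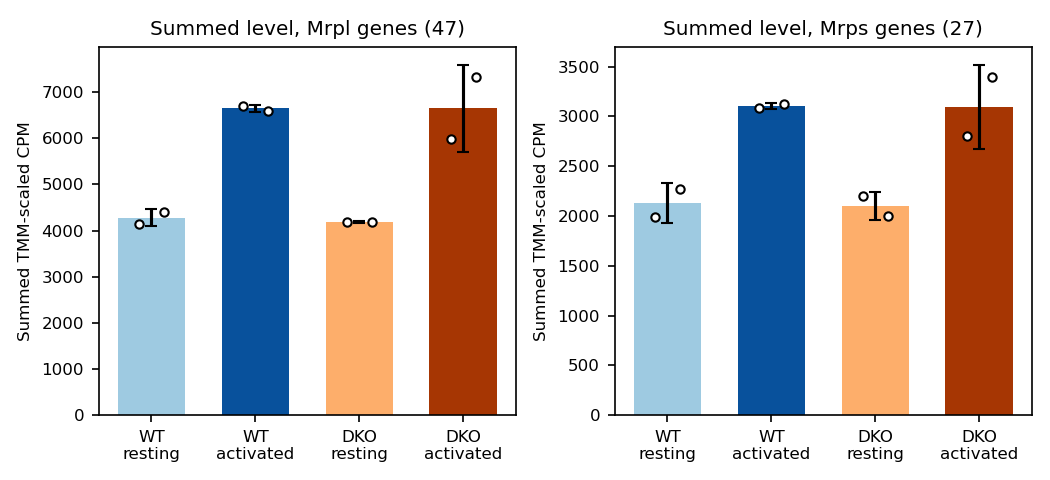
Summed level (TMM-scaled CPM) of the 47 Mrpl genes (left) and the 27 Mrps genes (right) in each group. Bars are means, error bars the SD and circles the 2 libraries of a group. In both panels each activated library lies above each resting library.

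Both subunits contributed. The Mrpl genes summed to 4148 and 4412 CPM in WT resting, 6697 and 6599 in WT activated, 4176 and 4194 in DKO resting and 5990 and 7325 in DKO activated libraries. The Mrps genes summed to 1985 and 2269, 3088 and 3130, 2201 and 2003, and 2799 and 3398 CPM in the same order. The ratio of both sums stayed within 1.9 to 2.2 across the 8 libraries.

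In the mean of both genotypes, 37 of the 73 tested members rose with activation and 0 fell, by the edgeR quasi-likelihood test with an adjusted p under 0.05 over all 8616 tested genes. Of all tested genes 16.3% rose and 13.4% fell. The difference was positive for 68 members and negative for 5, and 45 had an unadjusted p under 0.05. The members' median log2 fold change was 0.55, with quartiles of 0.26 and 0.83, while that of all tested genes was −0.01, with quartiles of −0.44 and 0.43. The rises spanned 0.44 to 1.43 on the log2 scale, so most were smaller than a doubling, and 6 members passed 2-fold. For 42 members all 4 activated libraries lay above all 4 resting libraries, which held for 14.9% of all tested genes, and for 0 members all lay below.

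DESeq2 called 31 members higher, and 10.7% of all genes it tested. Leaving out a library in turn gave 27 to 37 members, with 12.1% to 15.4% of all genes called higher. Scaling by library totals alone in place of TMM gave 23 members higher and 0 lower, with 10.5% of all genes higher. That scaling moved the median of all tested genes to −0.22 and turned the split of all calls from 1402 higher and 1154 lower to 908 higher and 1889 lower. Relative to the median of all genes, the members' median was 0.57 under either scaling. A change of scaling shifts all genes nearly alike, so this equality was fixed in advance and is no test of the rise. Cells with more of a transcript and a larger share of cells that carry it cannot be told apart in bulk samples.

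**Figure D2:**
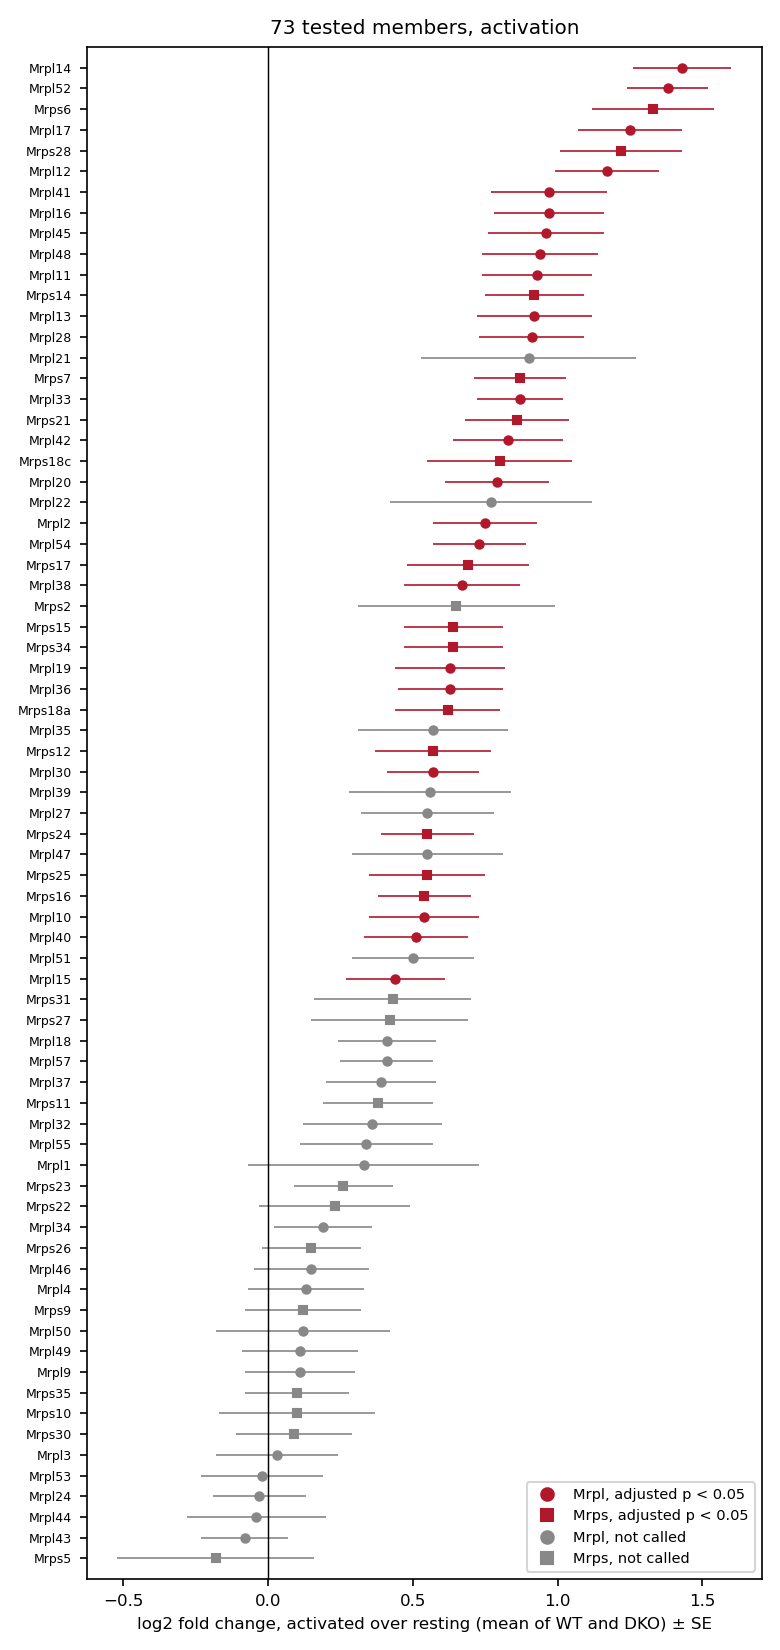
Log2 fold change of activated over resting libraries, as the mean of WT and DKO, for the 73 tested genes, with the SE. Red marks genes with an adjusted p under 0.05, circles Mrpl and squares Mrps genes. The 37 red genes all lie right of 0, and the 5 genes left of 0 are grey.

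Split by symbol, 23 of 47 Mrpl genes rose, with a median over all tested of 0.56, and 14 of 26 Mrps genes, with a median of 0.55. Mrps18a and Mrps30 carry an Mrps symbol but sit in the large subunit. Split by the subunit that holds the protein, 24 of 49 rose in the large subunit (median 0.56) and 13 of 24 in the small subunit (median 0.55). Proteins with a bacterial counterpart rose in 26 of 44 cases with a median of 0.63. Of the remaining proteins, which occur only in mitochondria or are extra mitochondrial copies, 11 of 29 rose, with a median of 0.42. Those differences between classes were not tested. The share called was larger at higher level. Below a mean log2 CPM of 6, 1 of 16 members rose, against 9.19% of all genes at that level. Between 6 and 7, 19 of 33 rose, against 18.8%, and at 7 or above 17 of 24, against 37%.

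Among large subunit proteins the largest rise was that of Mrpl14, the counterpart of bacterial L14 at the interface of the subunits (ENSMUSG00000023939.7, chr17:45686322-45698495, + strand, GENCODE M21 on GRCm38). Its level was 93.4 and 108 CPM in WT resting, 233 and 219 in WT activated, 92.5 and 84.2 in DKO resting and 243 and 325 in DKO activated libraries. Each activated library was well above each resting one. Its log2 fold change was 1.43 ± 0.17 (SE, edgeR adjusted p 7.69e-08).

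Mrpl52 (ENSMUSG00000010406.12, chr14:54426909-54429756, + strand), a protein found only in mitochondrial ribosomes, was both the most abundant member and the one with the smallest p. Its level was 244 and 292 CPM in WT resting, 564 and 686 in WT activated, 247 and 201 in DKO resting and 599 and 687 in DKO activated libraries. The lowest activated value was nearly double the highest resting one. It rose by 1.38 ± 0.14 on the log2 scale (adjusted p 7.37e-09).

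Mrpl17 (ENSMUSG00000030879.10, chr7:105803206-105811099, − strand), the counterpart of bacterial L17 near the exit of the peptide tunnel, stood at 86.4 and 93.6 CPM in WT resting, 193 and 196 in WT activated, 85.4 and 110 in DKO resting and 203 and 325 in DKO activated libraries. The groups did not overlap, and the second DKO activated library was the highest. It rose by 1.25 ± 0.18 (adjusted p 2.02e-06). An annotated antisense gene overlaps its last 500 bases, and whether the counting used strand is not stated in the labels. All members with such overlaps are listed under the other observations.

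Mrpl10, Mrpl11 and Mrpl12 form the stalk of the large subunit, which recruits translation factors, and Mrpl12 is the counterpart of bacterial L7/L12. Mrpl12 (ENSMUSG00000039640.7, chr11:120484613-120489065, + strand) stood at 99.8 and 166 CPM in WT resting, 267 and 270 in WT activated, 126 and 97.8 in DKO resting and 218 and 325 in DKO activated libraries, with no overlap. It rose by 1.17 ± 0.18 (adjusted p 7.74e-06). Mrpl11 was at 85.7 and 54.9, 158 and 141, 73.5 and 80.5, and 130 and 146 CPM in the same order, again without overlap, and rose by 0.93 ± 0.19 (adjusted p 0.000273). Mrpl10, the base of the stalk, rose less, by 0.54 ± 0.19 (adjusted p 0.0287), and was called in only 5 of 15 alternatives. It lost its call when any library but DKO resting replicate 2 was left out, and without DKO resting replicate 1 it was at 0.37 with an adjusted p of 0.128.

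Of the other large subunit proteins, Mrpl16, the counterpart of bacterial L16, rose by 0.97 ± 0.19 (adjusted p 0.000246), and Mrpl41, found only in mitochondria, by 0.97 ± 0.2 (adjusted p 0.000328). The most abundant members after Mrpl52 were Mrpl30 and Mrpl33, counterparts of bacterial L30 and L33. Mrpl33 stood at 181 and 177, 267 and 285, 116 and 157, and 319 and 286 CPM in WT resting, WT activated, DKO resting and DKO activated libraries, and rose by 0.87 ± 0.15 (adjusted p 5.01e-05). Mrpl30 stood at 207 and 222, 308 and 381, 180 and 210, and 224 and 325 CPM in that order and rose by 0.57 ± 0.16 (adjusted p 0.00544). The lower DKO activated value of Mrpl30 was only slightly above the highest resting value, and its call was lost with library totals alone (0.36, adjusted p 0.0618) and without both libraries of lowest total count (0.37, adjusted p 0.0831).

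Among small subunit proteins Mrps6 (ENSMUSG00000039680.10, chr16:92058270-92112227, + strand), the counterpart of bacterial S6, rose most. Its CPM values were 52 and 56.2 in WT resting, 115 and 111 in WT activated, 33.2 and 48.3 in DKO resting and 107 and 155 in DKO activated libraries. Each activated library was clearly above each resting one. The log2 fold change was 1.33 ± 0.21 (adjusted p 9.45e-06). Another annotated gene on the same strand overlaps its last 500 bases, so its count could hold reads of both.

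Mrps28 (ENSMUSG00000040269.5, chr3:8802146-8923918, − strand) stood at 53.4 and 56.2, 104 and 115, 61.7 and 34.7, and 118 and 131 CPM in WT resting, WT activated, DKO resting and DKO activated libraries, without overlap. It rose by 1.22 ± 0.21 (adjusted p 3.49e-05). Mrps7, the counterpart of bacterial S7 in the head of the small subunit, stood at 125 and 153, 227 and 227, 116 and 103, and 217 and 222 CPM in that order. Its 4 activated values were almost equal, and it rose by 0.87 ± 0.16 (adjusted p 9.21e-05). Mrps14 and Mrps21, counterparts of bacterial S14 and S21, rose by 0.92 ± 0.17 (adjusted p 0.000129) and 0.86 ± 0.18 (adjusted p 0.000345). The abundant Mrps15 rose by 0.64 ± 0.17 (adjusted p 0.00406).

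Mrps24, abundant as well, rose by 0.55 ± 0.16 (adjusted p 0.0117), with a call that was lost in 5 of 15 alternatives, as with WT activated replicate 1 left out (adjusted p 0.0504), and likewise WT resting replicate 1 (0.103), DKO resting replicate 2 (0.0781) or DKO activated replicate 2 (0.0538). Mrps18a and Mrps18c are paralogs that both descend from bacterial S18, and Mrps18a sits in the large subunit despite its symbol. Mrps18c stood at 32.3 and 45.5, 79.5 and 61.1, 33.2 and 42.1, and 48.8 and 83.5 CPM and rose by 0.8 ± 0.25 (adjusted p 0.0134). Its call was lost in 6 of 15 alternatives, over all of which its log2 fold change was 0.54 to 1. These were DESeq2, library totals alone and the fit without both libraries of lowest total count. The others left out WT activated replicate 1, WT resting replicate 1 or DKO activated replicate 2. Mrps18a rose by 0.62 ± 0.18 (adjusted p 0.00842), or by 0.49 without DKO activated replicate 2. Its call was lost there and with library totals alone, and its log2 fold change was 0.4 to 0.75 over all alternatives.

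**Figure D3:**
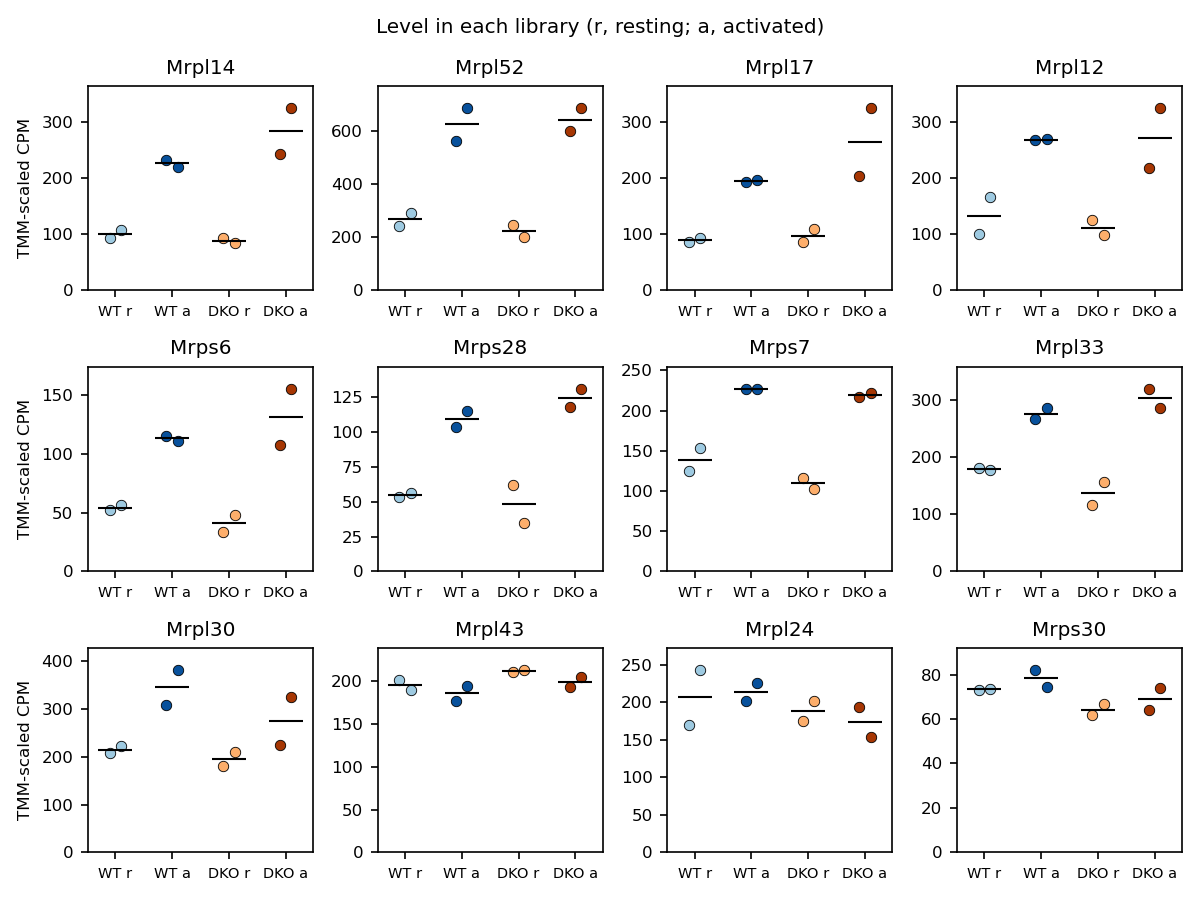
TMM-scaled CPM of 12 genes in each library (r, resting; a, activated), with the mean of each group as a line. Mrpl14, Mrpl52, Mrpl17, Mrpl12, Mrps6, Mrps28, Mrps7, Mrpl33 and Mrpl30 are higher in activated libraries, and Mrpl43, Mrpl24 and Mrps30 show overlapping groups.

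The other 36 tested genes did not pass the test. Mrps30, which also sits in the large subunit despite its symbol, stood at 73.1 and 73.6 CPM in WT resting, 82.1 and 74.6 in WT activated, 61.7 and 66.8 in DKO resting and 64.2 and 74 in DKO activated libraries. Its log2 fold change was 0.09 ± 0.2 (adjusted p 0.788). A pair of abundant genes, Mrpl43 and Mrpl24, was picked after their values were seen. Mrpl43 (ENSMUSG00000025208.9, chr19:45004829-45006442, − strand) stood at 201 and 189, 177 and 194, 211 and 213, and 193 and 205 CPM, a log2 fold change of −0.08 ± 0.15 (adjusted p 0.726). Mrpl24 (chr3:87919506-87923672, + strand), a protein near the tunnel exit, stood at 170 and 243, 201 and 225, 175 and 202, and 193 and 153 CPM, a log2 fold change of −0.03 ± 0.16 (adjusted p 0.915). For both, resting and activated libraries were interleaved. The other members with a negative value, also picked after seeing them, were Mrpl44 (−0.04 ± 0.24), Mrpl53 (−0.02 ± 0.21) and Mrps5 (−0.18 ± 0.34).

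Set against the response, the motifs of the promoters shown above were spread as follows. Over the 64 members with a promoter, the NRF1 sequence was in 20% of the 30 that rose and 17.6% of the 34 that did not pass the test. The ETS core was in 13.3% and 32.4%, and the E-box in 13.3% and 2.94%, figures that rest on 4 against 11 and on 4 against 1 genes and were not tested.

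Members rose in each genotype taken alone. In WT 25 members rose and 0 fell, where 8.44% of all tested genes rose and 5.92% fell, and the members' median was 0.56. In DKO 19 rose and 0 fell, where 9.02% of all rose and 6.33% fell, and the median was 0.58. The unadjusted p was under 0.05 for 37 members in WT and 31 in DKO. Of these genes 16 rose in both genotypes, 9 passed in WT alone and 3 in DKO alone, and 60 of the 73 had a positive value in both. The matching counts over all tested genes are not given here, so these overlaps are not shown to be particular to the members. Across the 73 genes the fold changes in WT and DKO had a Pearson r of 0.647, and across all tested genes 0.686. Genes are not independent replicates, and the 2 values come from separate libraries that share a fit. The authors' deposited table gave 18 members higher and 0 lower in WT, and 13 higher and 0 lower in DKO, of 73 with an adjusted p. Over all genes with an adjusted p, the authors' deposited table has 7.04% higher in WT and 6.34% higher in DKO.

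Counts within a genotype moved with single libraries. In WT the count was 6 without WT resting replicate 1, 11 without WT resting replicate 2, 7 without WT activated replicate 1 and 10 without WT activated replicate 2, and 11 with library totals alone. The share of all genes called higher went down as well, from 8.44% to 3.46%, 5.18%, 4.18%, 3.88% and 4.85% in that order. With a WT library left out the members' median in WT was 0.53 to 0.61. In DKO it was 11 when DKO resting replicate 1 was left out, 8 without DKO activated replicate 2, and 7 without both, which are the libraries of lowest total count. The share of all genes called higher went from 9.02% to 5.58%, 4.6% and 3.61%. The members' median in DKO was 0.36 without DKO activated replicate 2 and 0.72 without DKO activated replicate 1.

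**Figure D4:**
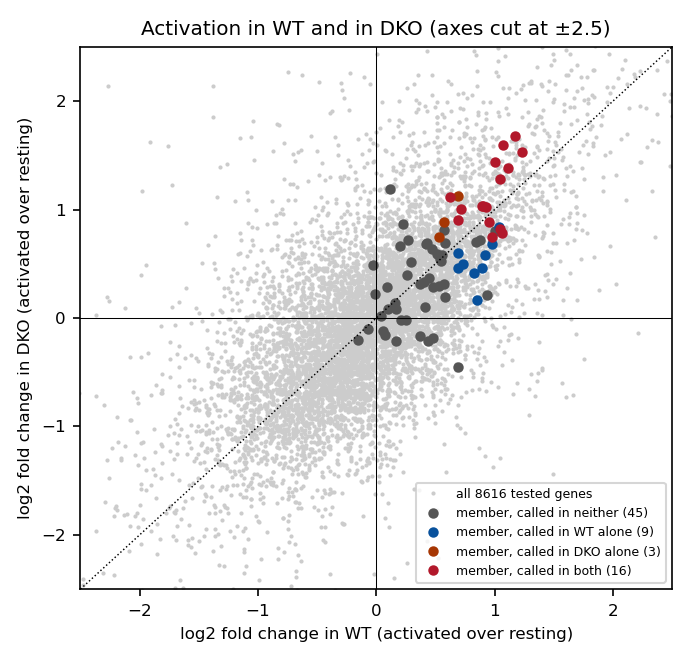
Log2 fold change with activation in WT (horizontal) and DKO (vertical) for the members in colour and all 8616 tested genes in grey, with both axes ending at 2.5 in size. Most members lie in the upper right quadrant, around the diagonal, with 16 called in both genotypes, 9 in WT alone and 3 in DKO alone.

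The members of largest rise passed the test in both genotypes. In WT Mrpl14 rose by 1.17 ± 0.22 (adjusted p 0.000413), and in DKO by 1.68 ± 0.24 (adjusted p 9.14e-06). Mrpl52 rose by 1.23 ± 0.2 (adjusted p 4.2e-05) and 1.53 ± 0.21 (adjusted p 3.15e-06). Mrps6 rose by 1.07 ± 0.28 (adjusted p 0.00739) and 1.6 ± 0.31 (adjusted p 0.000461). Its WT call was lost with WT activated replicate 1 left out (1.05, adjusted p 0.0662), and likewise WT activated replicate 2 (1.09, 0.0614) or WT resting replicate 1 (0.99, 0.116). Its DKO call was lost without both libraries of lowest total count (1.13, adjusted p 0.0588). Mrpl14 and Mrpl52 kept both calls in every alternative run.

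The interaction, which asks whether the response differs between genotypes, called 0 members by edgeR, 0 with an unadjusted p under 0.05, and 0 by DESeq2 and limma-voom. Over all tested genes it called 0%. Calls in a single genotype therefore do not show a difference between genotypes. The smallest p values belonged to Mrpl50, a mitochondria-specific protein, at −1.14 ± 0.6 (unadjusted p 0.0666, adjusted p 0.997), Mrpl40 at −0.68 ± 0.37 (unadjusted p 0.0726) and Mrpl46 at −0.66 ± 0.39 (unadjusted p 0.103). Mrpl40, a large subunit protein, stood at 81.5 and 82.9 CPM in WT resting, 142 and 154 in WT activated, 102 and 87.9 in DKO resting and 87.4 and 129 in DKO activated libraries. In WT its groups were far apart, by 0.85 ± 0.25 (adjusted p 0.0171), and in DKO they overlapped, at 0.17 ± 0.27 (adjusted p 0.741), or −0.1 without DKO activated replicate 2. The WT call was lost with any of the 4 WT libraries left out, at 0.79 to 0.91 with adjusted p values of 0.0781 to 0.149. In the mean of both genotypes it was called at 0.51 ± 0.18 (adjusted p 0.0358), but in only 6 of 15 alternatives, and it kept the call with a library left out only where that was DKO resting replicate 1 or DKO activated replicate 1. Mrpl36 was called in WT alone (0.83, adjusted p 0.018, against 0.42 in DKO) and Mrpl28 in DKO alone (1.13, adjusted p 0.00362, against 0.69 in WT). The WT call of Mrpl36 was lost with any of the 4 WT libraries left out, at 0.71 to 0.98 with adjusted p values of 0.069 to 0.166, and with library totals alone (0.59, adjusted p 0.0933). The DKO call of Mrpl28 was lost with DKO resting replicate 2 left out (0.94, adjusted p 0.0665), with DKO activated replicate 2 left out (0.87, adjusted p 0.0744) and without both libraries of lowest total count (0.98, adjusted p 0.0684). The interactions of Mrpl36 and Mrpl28 had unadjusted p of 0.255 and 0.242.

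Between genotypes at the same state 0 members were called. At rest edgeR called 0 of 73, where 0.162% of all tested genes were called, with 1 member at an unadjusted p under 0.05. After activation it called 0, where 0.174% of all were called, with 0 at an unadjusted p under 0.05. In the mean of both states it called 0, where 0.209% of all were called, with 1 at an unadjusted p under 0.05. DESeq2 and limma-voom also called 0 in each of these comparisons, and the authors' deposited table gives 0 at rest and 0 after activation. The members' medians of DKO minus WT were −0.03, −0.05 and −0.03. The smallest p at rest was that of Mrpl38, a large subunit protein found only in mitochondria, which stood at 45.7 and 61.5 CPM in WT and 75.9 and 90.4 CPM in DKO resting libraries. The libraries did not overlap, and the difference was 0.68 ± 0.29 (unadjusted p 0.0246, adjusted p 0.909). Mrps9 and Mrps2, both with bacterial counterparts in the small subunit, followed with 0.56 ± 0.28 and −1.01 ± 0.51. After activation Mrpl42 had −0.51 ± 0.26, Mrpl40 −0.49 ± 0.26 and Mrpl17 0.42 ± 0.23, each with an adjusted p of 1. Differences of the size of these errors were not detectable with 2 libraries a group.

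The counts for the other genes of mitochondrial translation follow, where 16.3% of all tested genes rose and 13.4% fell. Of the 5 tested ribosomal proteins that carry other symbols, 4 rose, with a median of 0.48. Ict1, a peptidyl-tRNA hydrolase built into the large subunit and now named Mrpl58, rose by 0.54 ± 0.18 (adjusted p 0.0207). Aurkaip1, of the small subunit, rose by 0.48 ± 0.14 (adjusted p 0.0123), as did Chchd1 and Gadd45gip1, while Dap3 had 0.41 ± 0.17 (adjusted p 0.0653).

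Of 12 tested translation factors 2 rose (16.7%), near the 16.3% of all tested genes, with a median of 0.09. Tufm, the mitochondrial elongation factor Tu that brings aminoacyl-tRNAs to the ribosome, stood at 40 and 80.3 CPM in WT resting, 146 and 158 in WT activated, 54.5 and 59.4 in DKO resting and 107 and 155 in DKO activated libraries, without overlap. It rose by 1.28 ± 0.21 (adjusted p 2.58e-05). Mrrf, the ribosome recycling factor, rose by 1.22 ± 0.31 (adjusted p 0.00339).

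Of 16 mitochondrial aminoacyl-tRNA synthetases 3 rose (18.8%) and 2 fell (12.5%), with a median of 0.13. These shares were near the 16.3% and 13.4% of all tested genes. Tars2, for threonine, rose by 0.63 ± 0.19 (adjusted p 0.0104), and Hars2, for histidine, fell by 1.01 ± 0.27 on the log2 scale. Of 20 factors that assemble the mitochondrial ribosome or modify its RNA, 0 were called by edgeR, 0 had an unadjusted p under 0.05, and the median was 0.09. Of these Tfb1m, a methyltransferase of the small ribosomal RNA, had 0.72 ± 0.37 and the GTPase Noa1 0.42 ± 0.24.

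Among 19 factors of mitochondrial genome upkeep and expression 2 rose (10.5%, against 16.3% of all tested genes), and the median was −0.07. The 2 were Slirp (0.78 ± 0.27, adjusted p 0.0267) and Hsd17b10 (0.69 ± 0.18, adjusted p 0.00327), both of which act on mitochondrial RNA. These 4 lists of factors had median levels of 5.07 to 5.48 on the log2 CPM scale, against 6.67 for the ribosomal proteins. Calls were rarer at low level, as given above. Below a mean log2 CPM of 6 the median fold change was 0.42 for members and −0.07 for all genes, on the log2 scale. The part of level in the calls of these lists was not tested. Mitochondrially encoded transcripts were not analysed here.

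Of 11 regulators of nuclear genes for mitochondrial proteins 0 rose and 2 fell (18.2%), where 16.3% of all tested genes rose and 13.4% fell. Gabpb2, a partner of the ETS factor Gabpa, fell by 0.88 ± 0.2 on the log2 scale (adjusted p 0.000999), and the nuclear receptor Esrra by 0.65 ± 0.2 (adjusted p 0.0147). The median of the 11 was −0.39, with 4 positive and 7 negative values. Myc, an E-box factor that acts on many ribosome genes, had the highest value of the list, 0.54 ± 0.26 (adjusted p 0.124).

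Import, oxidative phosphorylation and cytosolic ribosomes, whose genes are also nuclear, had medians near that of the mitochondrial ribosome. Of 21 tested import components 11 rose and 0 fell, with a median of 0.56, among them Timm10 (1.15 ± 0.18, adjusted p 9.05e-06) and Timm13 (0.88 ± 0.15, adjusted p 3.34e-05), chaperones of the intermembrane space. Of 86 subunits and assembly factors of oxidative phosphorylation 60 rose and 1 fell, with a median of 0.62. Uqcc2, an assembly factor of complex III, rose by 1.49 ± 0.18 (adjusted p 1.53e-07). Of 74 cytosolic ribosomal proteins 46 rose and 0 fell, with a median of 0.53, led in p by Rpl41 (1.22 ± 0.12, adjusted p 4.68e-09). Cytosolic ribosomal proteins have many pseudogenes that can share their reads. Over all tested genes 16.3% rose and 13.4% fell. The median log2 CPM was 6.8 for import, 7.88 for oxidative phosphorylation and 8.23 for cytosolic ribosomal proteins. Of all tested genes, 18.8% rose at a level between 6 and 7, and 37% at 7 or above. No difference between these lists and the mitochondrial ribosomal proteins was tested.

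**Figure D5:**
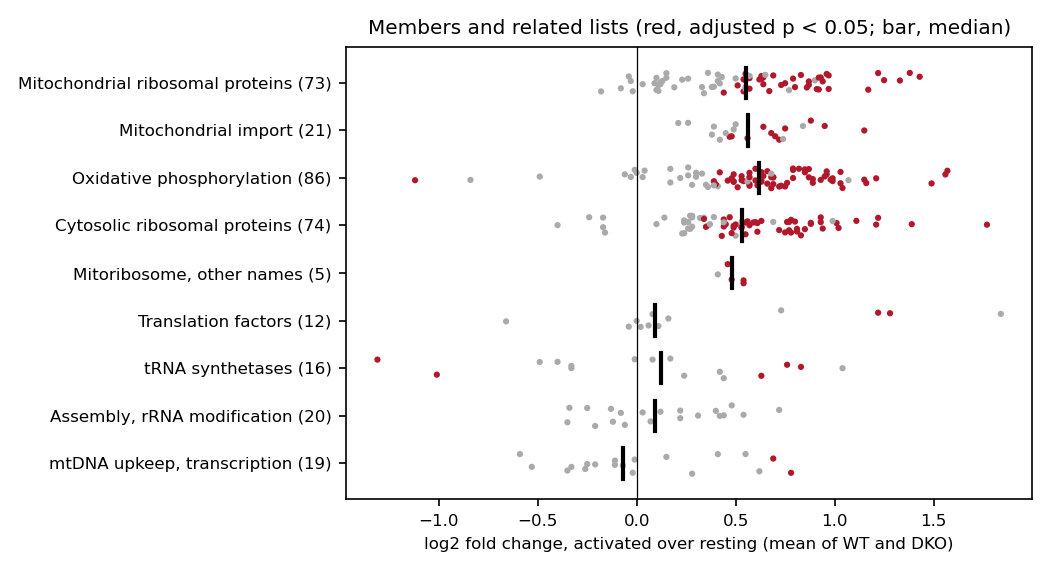
Log2 fold change with activation (mean of WT and DKO) for each tested gene of the mitochondrial ribosomal proteins and of the related lists, with the number of genes in brackets. Red points have an adjusted p under 0.05, and black bars are medians. The members (median 0.55), import (0.56), oxidative phosphorylation (0.62) and cytosolic ribosomal proteins (0.53) lie right of 0, and the assembly factors (0.09) and translation factors (0.09) near it.

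Other signals moved with activation in the same libraries, where 16.3% of all tested genes rose and 13.4% fell. The 9 tested markers of monocytes and macrophages all rose, and their summed level was 2221 to 2561 CPM in WT resting, 5000 to 5800 in WT activated, 3002 to 3026 in DKO resting and 11731 to 15395 in DKO activated libraries, with none of the 9 at 0. Their sum in DKO activated libraries was above that of WT activated libraries. Of 19 proliferation genes 15 rose, and their sum went from 483 to 660 CPM in WT resting to 985 to 1112 in WT activated, and from 477 to 501 in DKO resting to 1050 to 1520 in DKO activated libraries. Of 10 tested DC markers 3 rose and 1 fell. Of 9 B cell markers 2 rose and 6 fell, with Pax5 at 0 in WT activated replicate 2 and DKO activated replicate 2. Of 7 T cell markers 1 rose and 5 fell, with summed levels of 1637 to 2067, 785 to 1395, 1047 to 1482 and 960 to 1160 CPM for T cell markers in the same order of groups. Of 17 immediate early genes, which respond to tissue handling, 14 fell. NK cell markers rose in 3 of 7 cases and summed to 239 to 682 CPM over all libraries, and plasma cell markers rose in 1 and fell in 1 of 4, at 297 to 566 CPM, with Jchain at 0 in WT resting replicate 2 and DKO resting replicate 1. Of the erythrocyte and platelet markers 1 of 8 was in the table, at 2 to 9 CPM. The part of these signals in the rise of the mitochondrial ribosomal proteins was not tested.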

How the data were processed

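RNA of 8 libraries was measured by bulk MARS-seq. The submitters' processing notes name HTSeq, TopHat2, DESeq2, cutadapt 1.8.3 and bcl2fastq 2.17.1.14, and the build mm10. For annotation, strand setting and UMI collapsing, the rules were not given in the sources used here. Raw UMI counts per gene, which the authors deposited, were the input of every test. Per the file headers, they also deposited their log2 fold change and adjusted p-value for 4 comparisons, of which counts of calls are quoted as theirs. A further 16 per-sample columns were not used. Every gene of the table reaches 6 UMIs in some library.

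Genes were filtered with filterByExpr by group (8616 tested, 1796 not), and edgeR 4.0.16 (R 4.3.3) with TMM scaling was fitted with 1 coefficient per group, leaving 4 residual degrees of freedom. The quasi-likelihood F test was adjusted by Benjamini-Hochberg over all tested genes, and an adjusted p under 0.05 is called. CPM values are TMM-scaled and not divided by length, since a molecule is counted once. A floor of 3 UMIs equals 2.11 to 7.16 CPM, for counting error only. The fit was tested on simulated data for the activation mean. It recovered 12% of genes changed by 0.5 on the log2 scale and 70% of those changed by 1. Of the genes called there 4.65% were unchanged. Changes near 0.5 were thus mostly missed in the simulation, where 100 of the 8616 genes changed at each size. In the data 1402 genes were called higher and 1154 lower, so the recovery there may differ and was not measured. A gene that did not pass the test may still have changed.

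Members and lists were chosen with earlier results of these data known. Named members are the 6 largest called rises and 3 most abundant of each subunit and the smallest p in each genotype contrast. Of members called in a single genotype, the 3 with the smallest interaction p are named. Stalk and Mrps18 proteins, Mrps30, untested members and the 2 smallest p of each list were added. Mrpl43, Mrpl24, Mrpl44, Mrpl53 and Mrps5 are said to be picked after their values were seen. Other genes, such as Myc, Dap3, Chchd1, Gadd45gip1, Zbtb46, Xcr1 and Pax5, were named outside these rules. Alternatives were DESeq2 1.42.0, its size factors, library totals alone, 2 other filters, limma-voom (limma 3.58.1), fits of the 4 libraries compared, and leaving out libraries. Gene positions come from GENCODE M21 and promoters from RefSeq, both GRCm38. Protein sequences were not used here.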

Additional observations from a re-analysis of the deposited data

How the results depend on the processing

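For activation in the mean of both genotypes, 23 members were called higher with library totals alone, against 37, and 26 without both libraries of lowest total count. Leaving out a library in turn gave 27 to 37. In WT, against 25, library totals alone gave 11, and leaving out a library in turn 6 to 27. In DKO, against 19, leaving out a library in turn gave 8 to 21, and leaving out both libraries of lowest total count 7. The number of members called lower with activation, and of those called for genotype or interaction, was 0 in every alternative run. With library totals alone the share of all tested genes called higher was 10.5% in the mean, 4.85% in WT and 6.13% in DKO. With TMM it was 16.3%, 8.44% and 9.02%. Of the 37 called members 23 were called in all 15 alternatives and 14 lost the call in at least 1. Counts of kept calls and of turned signs over all tested genes are not given here. Those of the members are therefore not shown to be particular to them. Over all alternatives 19 members had a negative value in at least 1, and 0 of the called members did. With library totals alone 17 were negative, against 5, and 12 had turned. Of the members named above, Mrpl46 was then at −0.06, Mrpl50 at −0.09, Mrps30 at −0.12 and Mrps9 at −0.09. Mrpl50 was at 0 without WT resting replicate 2, −0.07 without WT activated replicate 1 and −0.03 without DKO resting replicate 2, and its range with a library left out reached 0.27. Mrps9 was at −0.08 without DKO resting replicate 2 and −0.01 without DKO activated replicate 1, and its range reached 0.29. Mrps2 (0.65) reached 1.37 with an adjusted p of 0.0342 without DKO resting replicate 2. The cause of these shifts was not tested, except that library totals alone moved the median of all tested genes to −0.22 in the mean, −0.26 in WT and −0.17 in DKO. No paired analysis was possible because the replicate numbers only name libraries. With 2 libraries a group and 401984 UMIs in the shallowest, small differences in genes of low level were not detectable. Where leaving out a library left a group with 1 library, that library was assumed to vary like the other groups. The single table does not tell technical from biological spread.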

Other observations

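The genes of the mitochondrial ribosome often lie beside another gene. In GENCODE M21, 24 of the 74 (32.4%) had a protein-coding gene on the opposite strand starting within 500 bases of their own start on either side, against 1294 of 8138 tested protein-coding genes (15.9%). In 16 members (21.6%), against 883 genes (10.9%), such a gene starts upstream and runs away without overlap. Mrpl46 and Mrps11 are each other's neighbour, overlapping at their 5′ ends. The pairs without overlap include Mrps12 with Sars2, the mitochondrial seryl-tRNA synthetase, Mrpl32 with the proteasome subunit Psma2, Mrpl49 with Fau and Mrpl40 with the histone chaperone Hira. At their 3′ ends, where MARS-seq counts, 6 members overlap another annotated gene on the same strand within 500 bases (Mrpl2, Mrpl33, Mrpl51, Mrpl53, Mrps34 and Mrps6). A further 12 overlap a gene on the opposite strand alone (Mrpl3, Mrpl10, Mrpl12, Mrpl17, Mrpl19, Mrpl24, Mrpl40, Mrpl47, Mrpl49, Mrps7, Mrps18a and Mrps25). GENCODE names 5 pseudogenes of members, and 0 of them are in the table.

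Members are short genes, with a median longest coding transcript of 1398 bases against 2988 bases over all tested genes with a length. Across genes, the Spearman correlation of the activation log2 fold change with that length was −0.284 over 73 members and −0.304 over 8160 genes. With the mean log2 CPM it was 0.28 over the members and 0.107 over all tested genes. These are descriptions across genes, which share the libraries and are not independent replicates.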
